A study of Macaca mulatta with 8 samples.

Results

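The mitochondrial carriers of the SLC25A family and the SLC35 family of nucleotide-sugar transporters and their relatives were followed in granulosa cells of rhesus macaques before and after an ovulatory stimulus. Members were the genes whose only platform symbol begins with SLC25A or SLC35, which gave 58 of the 14132 measured genes, 36 of them SLC25A and 22 SLC35. Where a gene had several probe sets, the brightest on average over the 8 arrays stands for it. Other genes of these families, among them the UDP-galactose transporter SLC35A2, were not analysed here.

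The samples are 4 RNA preparations of mural granulosa cells, the cells lining the follicle wall, from animals that received only follicle-stimulating hormone (FSH), labelled PM-GC, and 4 from animals that received FSH and then human chorionic gonadotropin (hCG), labelled VVM-GC. They are called before hCG and after hCG here, and all 8 share the FSH stimulation. The series design calls the cells mural, while the source labels name cumulus-oocyte complexes. Each preparation was amplified and read on its own Affymetrix rhesus array. The sources used here do not state the animal behind each array, its age, any pooling of follicles or the time from hCG to collection, so p-values measure only the spread between these samples, which may be technical. In whole-cell RNA, fewer cells of a type and less RNA per cell cannot be told apart.

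SLC25A proteins sit, with few exceptions, in the inner mitochondrial membrane and exchange nucleotides, phosphate, carboxylates, amino acids, cofactors and iron between the cytosol and the matrix. Granulosa cells need this traffic for respiration and for the mitochondrial steps of steroid synthesis. Many SLC35 proteins sit in the Golgi or the endoplasmic reticulum and import the activated sugars and the sulfate donor PAPS that glycosyltransferases and sulfotransferases use. Others in the family have no settled substrate. Proteoglycans and glycoproteins made from these donors are secreted into follicular fluid and into the matrix that the follicle forms around ovulation.

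The 2 families moved in opposite directions on balance. Of 36 SLC25A genes, 12 fell (33.3%), 5 rose (13.9%) and 19 did not pass, at an adjusted p of 0.05 from limma over all 14132 genes. Of 22 SLC35 genes, 7 rose (31.8%), 2 fell (9.09%) and 13 did not pass. Over all genes 11.3% rose and 12.5% fell, so the share of falling SLC25A genes and the share of rising SLC35 genes both lay above the background. Of the SLC25A genes 15 lay lower and 6 higher after hCG without overlap between the groups, and of the SLC35 genes 2 and 7, where 15.4% of all genes lay lower and 11.8% higher in this way. The background shares past the threshold became 10.2% higher and 14.8% lower when quantile normalization was repeated, and 11.8% and 10.7% after median centring. Centring also left 9 falling SLC25A genes in place of 12, without SLC25A38, SLC25A51 and SLC25A11 (adjusted p = 0.0541, 0.0527 and 0.0513). Without array 4 after hCG the falling SLC25A genes numbered 6 in place of 12, with 10.4% of all genes lower, while the SLC35 counts stayed at 7 and 2 with any single array left out. The median log2 change was -0.31 for SLC25A, 0.17 for SLC35 and -0.09 for all genes. The SLC35 median was closer to 0 with the mean of all probe sets (0.023), with repeated quantile normalization (0.061) and without array 1 after hCG (0.063).

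**Figure D1:**
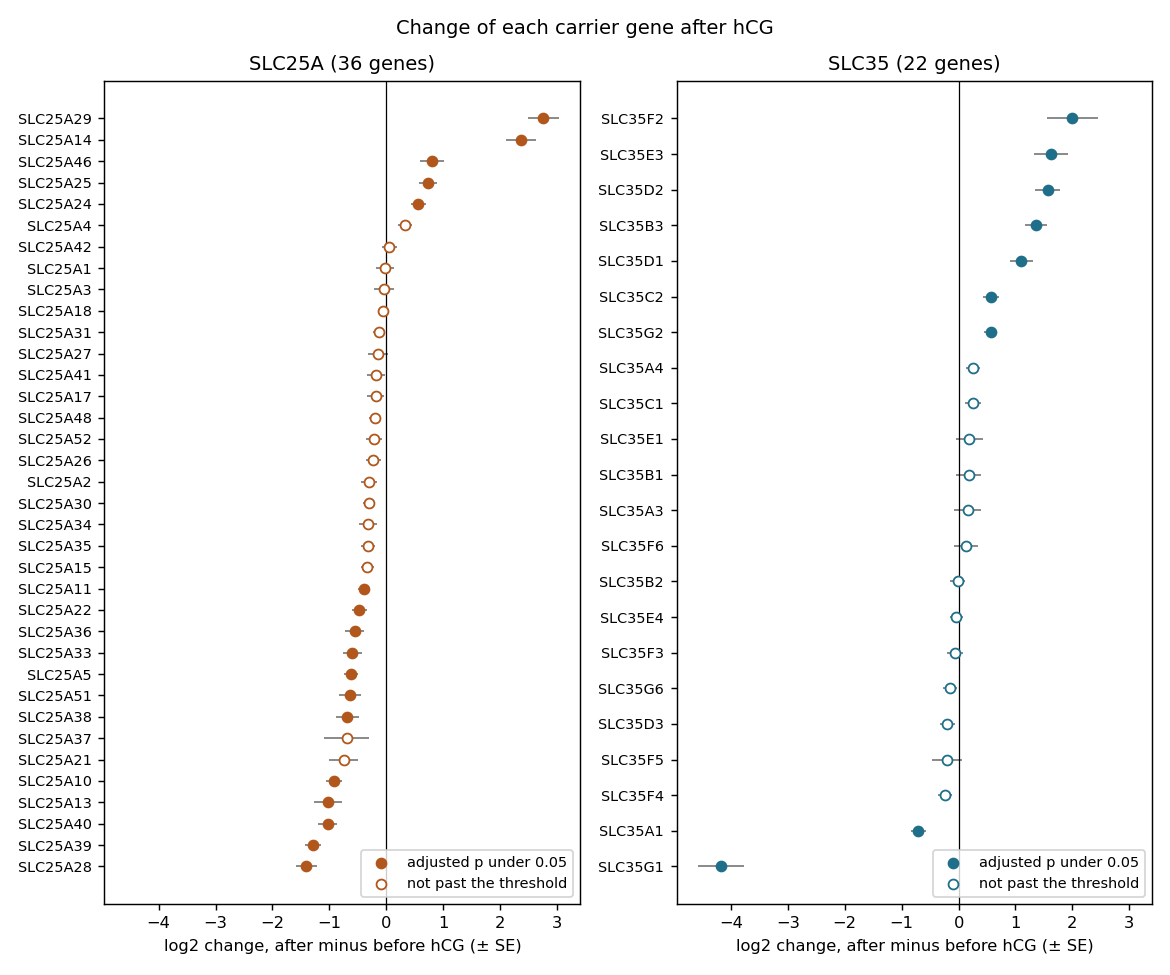
Log2 change after minus before hCG, with its standard error, for each SLC25A gene (left) and SLC35 gene (right). Filled points passed an adjusted p of 0.05. Most SLC25A genes lie left of 0, with SLC25A29 (2.75) and SLC25A14 (2.36) far to the right, and most filled SLC35 points lie right of 0, with SLC35G1 (-4.17) far to the left.

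The distribution of changes shows the same contrast without a threshold. Of the 36 SLC25A genes, 29 had a change below 0 and 7 above, and of the 22 SLC35 genes 9 lay below and 13 above. Over all genes 8755 were below 0 and 5377 above. At least 2-fold changes past the threshold were 2 higher and 4 lower in SLC25A and 5 higher and 1 lower in SLC35, where 10.5% of all genes changed this much in either direction. The difference between the family medians was -0.47, and it kept its sign in all 15 alternative settings, at -0.69 to -0.25 and smallest with the mean of all probe sets; no test was made of a value over members.

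**Figure D2:**
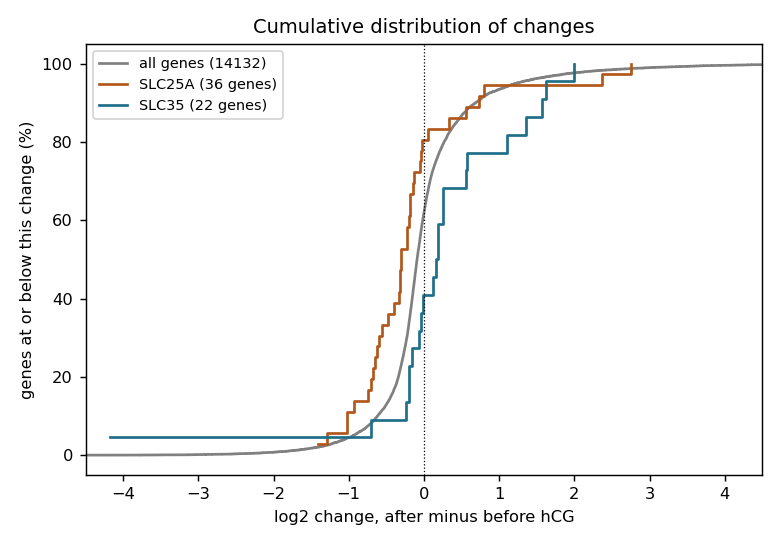
Cumulative share (%) of genes at or below each log2 change after hCG, for 36 SLC25A genes, 22 SLC35 genes and all 14132 genes; all genes reach beyond the plotted range. The SLC25A curve runs left of the all-gene curve below 0 (median -0.31), and the SLC35 curve runs right of it above 0 (median 0.17).

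SLC25A29, a carrier of basic amino acids, had the largest increase in its family. It read 6.34, 6.78, 7.23 and 6.10 (log2 intensity) on arrays 1 to 4 before hCG and 9.05, 9.36, 9.11 and 9.95 after. All arrays after hCG lay above all arrays before, and array 4 after hCG was the highest. The increase was 6.75-fold (log2 change 2.75, SE 0.27, adjusted p = 0.000105), and the second probe set of this gene rose as well, by 1.85.

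SLC25A14, a relative of the uncoupling proteins that is best known from brain, read 6.82, 7.18, 6.67 and 6.92 before hCG and 9.63, 8.76, 8.78 and 9.87 after. Its groups did not overlap, and after hCG arrays 1 and 4 stood about 1 unit above arrays 2 and 3. It rose 5.15-fold (log2 change 2.36, SE 0.26, adjusted p = 0.000186). Its nearest measured relatives did not pass: SLC25A27 differed by -0.14 and SLC25A30 by -0.31 (adjusted p = 0.602 and 0.0694), though SLC25A30 passed with a trended, robust variance prior (adjusted p = 0.0496).

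The remaining 3 SLC25A increases were smaller. SLC25A25 and SLC25A24 exchange ATP-magnesium for phosphate under the control of calcium and so set the size of the matrix adenine nucleotide pool. SLC25A25 read 9.86, 9.46, 9.99 and 9.77 before and 10.54, 10.12, 10.75 and 10.58 after hCG (change 0.73, SE 0.16, adjusted p = 0.0103). SLC25A24 read 7.82, 7.52, 8.01 and 7.75 before and 8.45, 8.15, 8.35 and 8.40 after (change 0.56, SE 0.13, adjusted p = 0.0128). In both genes array 2 was the lowest of its group before and after hCG, and the groups did not overlap. The third measured carrier of this kind, SLC25A41, had a signal below the array medians and differed by -0.18 (adjusted p = 0.431).

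SLC25A46, an outer membrane protein of mitochondrial fission rather than an inner membrane carrier, read 8.35, 8.21, 8.31 and 8.43 before and 8.50, 9.46, 9.54 and 9.01 after hCG. Array 1 after hCG was barely above the highest array before. It rose 1.74-fold (log2 change 0.80, SE 0.21, adjusted p = 0.022), and this call was lost without array 2 or 3 before hCG or array 2 after hCG, with adjusted p up to 0.0603.

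Of 8 measured carriers of cofactors, glutathione and iron 4 fell, 3 of them at least 2-fold, and none rose, where over all genes 12.5% fell, 4.33% fell at least 2-fold and 11.3% rose. SLC25A28, mitoferrin 2, brings iron into the matrix for haem and iron-sulfur clusters. It read 9.80, 9.54, 9.77 and 9.59 before hCG and 8.68, 8.37, 8.25 and 7.76 after, without overlap, and was 2.66-fold lower (log2 change -1.41, SE 0.18, adjusted p = 0.000501). Its paralog SLC25A37, mitoferrin 1, spread widely after hCG and did not pass (change -0.70, adjusted p = 0.245). After hCG SLC25A37 read 9.71 and 9.99 on arrays 1 and 2, within its range before hCG of 9.46 to 10.31, and 8.61 and 8.08 on arrays 3 and 4.

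SLC25A39, which imports glutathione into mitochondria, read 9.96, 9.96, 9.71 and 10.25 before and 8.42, 8.73, 8.81 and 8.77 after hCG. The gap between the groups was wider than the range within either one, and the gene was 2.44-fold lower (log2 change -1.29, SE 0.14, adjusted p = 0.0002). Its close homolog SLC25A40 read 7.45, 7.27, 7.71 and 7.03 before and 6.35, 6.09, 6.60 and 6.30 after hCG (change -1.03, SE 0.17, adjusted p = 0.00174). Both homologs thus fell at least 2-fold with no overlap on these probe sets; the mean of the 2 probe sets of SLC25A40 fell by 0.69. SLC25A51, the importer of NAD, fell by 0.65 (adjusted p = 0.0373, or 0.0529 with 32 added), whereas its near-identical paralog SLC25A52, which the probes may share, differed by -0.22 (adjusted p = 0.301). SLC25A26, which imports S-adenosylmethionine, and SLC25A42, which imports coenzyme A, differed by -0.23 and 0.05 and did not pass.

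Markers of red blood cells, in whose precursors mitoferrin 1 and haem synthesis are prominent, had lower means after hCG. Of 3 measured erythrocyte markers 2 fell, where 12.5% of all genes fell. The globin HBA fell by 1.47 (adjusted p = 0.0372) and ALAS2, the erythroid enzyme that starts haem synthesis, by 0.78 (adjusted p = 0.0243). HBB differed by -1.15 (adjusted p = 0.172). The summed log2 signal of the 3 was 10.7 to 11.2 before and 8.37 to 10.5 after hCG. It was lowest on array 1 after hCG, where HBA read 7.13 and HBB 6.73, while SLC25A37 was lowest on array 4 after hCG, where HBA read 9.06. The HBA call was lost without arrays 2, 3 or 4 before or arrays 1 or 3 after hCG, and the ALAS2 call without array 3 before or arrays 1 or 2 after (adjusted p up to 0.0956). HBA also did not pass with 32 added (adjusted p = 0.0604), nor ALAS2 with its probe sets averaged (adjusted p = 0.085). None of the 3 had a mean below the array medians, and their part in the carrier changes was not tested.

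Most leukocyte markers shared the uneven pattern of SLC25A37 after hCG. Of 8 measured, 6 read lower on both arrays 3 and 4 than on arrays 1 and 2 after hCG (75%), as did 17.3% of all genes. The others were CSF1R (7.90, 7.04, 7.02 and 7.44 after hCG) and CD68 (7.17, 6.47, 5.88 and 7.09). CSF1R, the brightest of the 8, was the only one to pass and fell by 2.09 (adjusted p = 0.000152). PTPRC, the pan-leukocyte antigen CD45, read 6.96, 7.39, 3.89 and 5.78 after hCG and 6.11 to 6.92 before. S100A8, a protein of neutrophils and monocytes, read 6.70, 9.23, 5.42 and 4.71 after hCG and 6.45 to 7.20 before. Neither passed (adjusted p = 0.632 and 0.735), and the part of leukocytes in the SLC25A37 values was not tested.

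Among carriers of di- and tricarboxylates 3 of 5 fell, beside 12.5% of all genes. All 5 had a change below 0 on their brightest probe sets, as did 8755 of all 14132 genes, but SLC25A11 was at 0.14 with the mean of its probe sets. SLC25A13, known as citrin, exports aspartate in exchange for glutamate and is part of the malate-aspartate shuttle. It read 8.77, 8.62, 8.99 and 8.73 before and 8.42, 7.83, 7.72 and 7.06 after hCG. Arrays after hCG spread over more than 1 unit, with array 1 close to the group before hCG and array 4 far below (change -1.02, SE 0.25, adjusted p = 0.0144). The mean of its 3 probe sets fell less, by 0.61 (adjusted p = 0.0122), and the dimmest probe set differed by -0.24 and did not pass. SLC25A10, the dicarboxylate carrier, was tighter: it read 7.34, 7.52, 7.15 and 7.71 before and 6.48, 6.68, 6.40 and 6.46 after (1.90-fold lower, change -0.92, SE 0.14, adjusted p = 0.0012).

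SLC25A11, the other carrier of the malate-aspartate shuttle, which exchanges oxoglutarate for malate, fell by 0.39 on its brightest probe set (adjusted p = 0.0318). SLC25A21, which carries oxodicarboxylates of amino acid breakdown, differed by -0.75 with overlap, since array 2 before hCG read 7.20, as low as the arrays after hCG (adjusted p = 0.0608, or 0.0443 when the brighter genes were tested alone). SLC25A1, the citrate carrier that supplies cytosolic acetyl-CoA for sterol and fatty acid synthesis, showed no difference past its spread, with means of 11.15 ± 0.29 before hCG and 11.13 ± 0.16 after it (SD, n = 4, adjusted p = 0.92).

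Of 10 carriers of nucleotides and phosphate, 3 fell (30%) and 2 rose (20%), the latter being SLC25A25 and SLC25A24, where 12.5% of all genes fell and 11.3% rose. SLC25A5, an ADP/ATP carrier of the inner membrane that is prominent in growing cells, read 13.16, 13.20, 13.34 and 13.04 before and 12.67, 12.64, 12.59 and 12.34 after hCG. The groups did not overlap and the within-group ranges were narrow (1.54-fold lower, change -0.62, SE 0.12, adjusted p = 0.00434). SLC25A4, the ADP/ATP carrier of heart and muscle, leaned the other way, with values of 9.86, 9.87, 10.15 and 10.03 before and 10.28, 10.16, 10.26 and 10.51 after; these groups did not overlap either, but the change of 0.33 did not pass (adjusted p = 0.0794). With 32 added to each intensity SLC25A4 passed as higher.

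SLC25A3, which brings the phosphate for ATP synthesis into the matrix, read 12.17, 12.31, 12.64 and 11.85 before and 12.08, 12.44, 12.004 and 12.30 after hCG. The ranges overlapped almost fully, and the difference of -0.03 (SE 0.18) was far within the spread (adjusted p = 0.909). The pyrimidine nucleotide carriers SLC25A33 and SLC25A36 fell by 0.60 and 0.56 (adjusted p = 0.0307 and 0.0336). SLC25A17, which works in peroxisomes and not in mitochondria, differed by -0.19, and SLC25A31, an ADP/ATP carrier known from testis, had a signal below the array medians, with means of 2.86 ± 0.08 before hCG and 2.73 ± 0.12 after it (SD, n = 4, adjusted p = 0.417).

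Of 6 carriers of amino acids, 2 fell (33.3%, against 12.5% of all genes) beside the rise of SLC25A29. SLC25A38, which imports glycine for haem synthesis, read 8.63, 8.22, 8.60 and 8.09 before and 8.18, 7.67, 7.33 and 7.62 after hCG; array 1 after hCG lay within the range before hCG, and the change was -0.68 (adjusted p = 0.0335). SLC25A22, a glutamate carrier, fell by 0.47 without overlap (adjusted p = 0.0264), and its paralog SLC25A18 differed by -0.05 at a signal below the array medians. The ornithine carriers SLC25A15 and SLC25A2 differed by -0.34 and -0.30 and did not pass (adjusted p = 0.0538 and 0.175). SLC25A15 passed as lower with the mean of its 2 probe sets (change -0.55, adjusted p = 0.00925), with 32 added (0.0484) and with the trended, robust variance prior (0.0412), and its dimmer probe set alone fell by 0.76 (adjusted p = 0.019 over probe sets). Among the uncoupling-protein-like and orphan members, SLC25A34, SLC25A35 and SLC25A48 differed by -0.32, -0.32 and -0.20 and did not pass.

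The falls of SLC25A28, SLC25A39, SLC25A40, SLC25A13, SLC25A10 and SLC25A5 passed in every alternative run, which was 6 of the 12, although the size for SLC25A13 depended on the probe sets as given above. The other 6 calls lay near the threshold, and each was lost when certain arrays were left out: SLC25A11 without any array but array 3 after hCG, and with a trended, robust variance prior (adjusted p = 0.0656), and SLC25A51 without any but array 2 before or array 1 after hCG. SLC25A22 lost it without arrays 1 or 2 before or arrays 2, 3 or 4 after hCG, and SLC25A33 without arrays 2, 3 or 4 before or arrays 3 or 4 after. SLC25A36 lost it without arrays 2, 3 or 4 before or arrays 1 or 4 after, and SLC25A38 without arrays 1 or 3 before or arrays 2, 3 or 4 after. Their adjusted p then lay between 0.0544 and 0.0934.

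**Figure D3:**
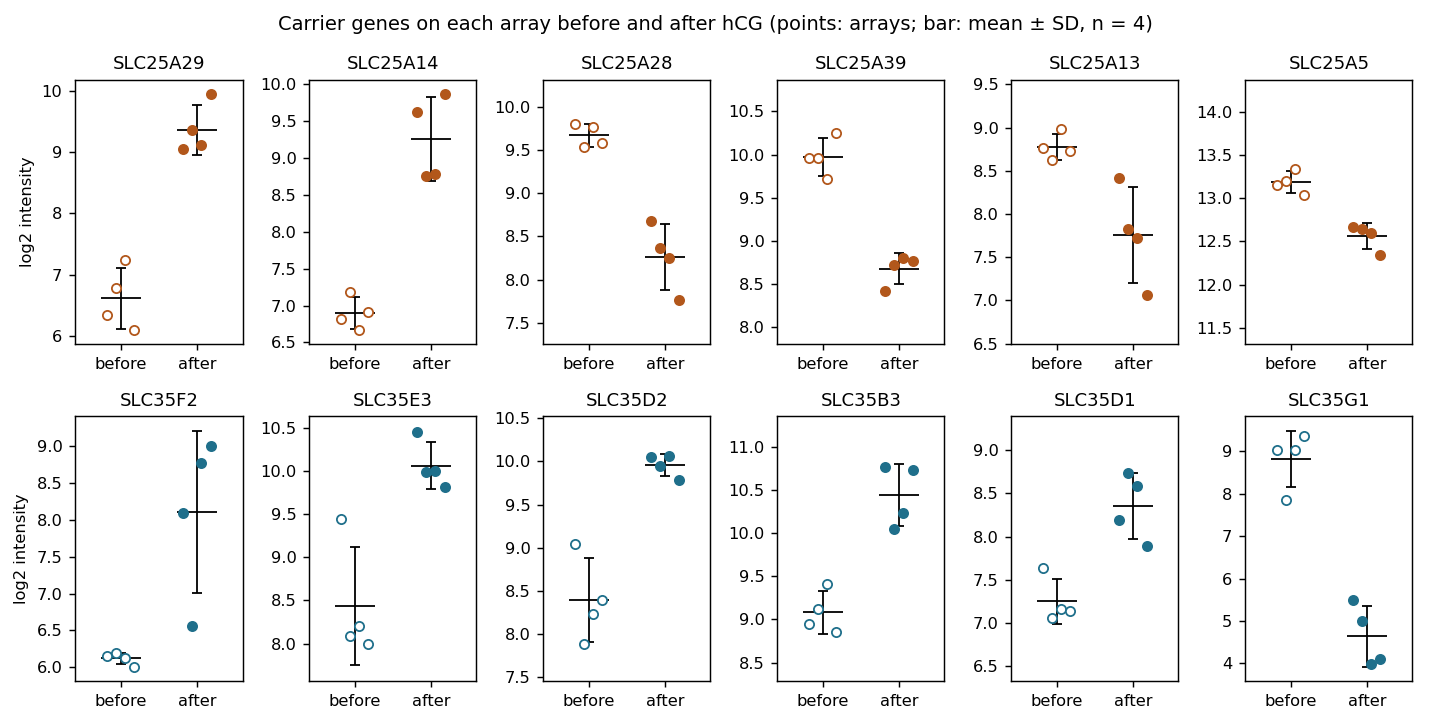
Log2 intensity on each array before (open) and after (filled) hCG for 6 SLC25A genes (top, orange) and 6 SLC35 genes (bottom, blue), with the mean ± SD (n = 4); each panel has its own vertical axis. In all 12 panels the groups do not overlap. SLC35F2 has the widest spread after hCG (SD 1.10), followed by SLC35G1 (0.72), SLC25A14 (0.57) and SLC25A13 (0.56). In SLC35E3 array 1 before hCG (9.45) stands above the other 3.

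Among the SLC35 transporters with a known substrate, SLC35D2, SLC35B3 and SLC35D1 rose and SLC35A1 fell. SLC35D1 brings UDP-glucuronic acid and UDP-N-acetylgalactosamine into the endoplasmic reticulum for chondroitin synthesis. It read 7.64, 7.06, 7.17 and 7.14 before and 8.19, 8.73, 8.59 and 7.90 after hCG, a 2.15-fold increase without overlap (log2 change 1.10, SE 0.20, adjusted p = 0.00376). SLC35D2, a Golgi transporter of UDP-N-acetylglucosamine, read 9.05, 7.89, 8.23 and 8.40 before and 10.05, 9.94, 10.06 and 9.79 after. It was spread over more than 1 unit before hCG and was tight after, and it rose 2.97-fold (log2 change 1.57, SE 0.22, adjusted p = 0.000758).

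SLC35B3, 1 of the transporters of the sulfate donor PAPS, read 8.95, 9.12, 9.41 and 8.85 before and 10.77, 10.04, 10.23 and 10.73 after hCG. The groups were clearly apart, and the increase was 2.56-fold (log2 change 1.36, SE 0.20, adjusted p = 0.0009). The other PAPS transporter, SLC35B2, had means of 10.87 ± 0.15 before hCG and 10.86 ± 0.18 after it (SD, n = 4), a change of -0.01 (adjusted p = 0.946). SLC35B1, which exchanges ATP for ADP across the endoplasmic reticulum membrane, read 9.67, 9.67, 10.19 and 10.35 before and 9.99, 9.76, 10.60 and 10.25 after, with overlapping ranges (change 0.18, SE 0.22, adjusted p = 0.594).

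SLC35A1, the Golgi transporter of CMP-sialic acid, went the other way. It read 9.49, 9.22, 9.61 and 9.47 before and 8.99, 8.58, 8.57 and 8.82 after hCG on its brightest probe set, without overlap, and was 1.63-fold lower (log2 change -0.71, SE 0.14, adjusted p = 0.00475). The mean of its 4 probe sets differed by -0.18 and did not pass (adjusted p = 0.258). The remaining members with a sugar role, SLC35A3 (UDP-N-acetylglucosamine), SLC35A4 and SLC35C1 (GDP-fucose), differed by 0.16, 0.26 and 0.26 and did not pass. Among the 6 nucleotide-sugar transporters, 2 rose (33.3%, against 11.3% of all genes), 1 fell (16.7%, against 12.5%) and 3 did not pass.

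The largest change of all 58 genes was that of SLC35G1, a membrane protein known as a partner of the calcium sensor STIM1. It read 9.03, 7.85, 9.04 and 9.36 before hCG and 5.49, 4.99, 3.99 and 4.12 after. Array 2 was the lowest before hCG, yet it was still over 2 units above the highest array after hCG. The gene was 18.04-fold lower (log2 change -4.17, SE 0.40, adjusted p = 9.07e-05). The arrays 2 to 4 after hCG lay below the array medians of 5.44 to 5.54, where a fold depends on the background correction, and with 32 added to each intensity the change was -3.06. Its measured relatives SLC35G2 and SLC35G6 behaved otherwise: SLC35G2 rose by 0.56 at a signal below the array medians, 3.37 ± 0.16 before and 3.94 ± 0.08 after hCG (adjusted p = 0.00578, change 0.16 with 32 added), and SLC35G6, whose probes may bind close paralogs, differed by -0.15 (adjusted p = 0.4).

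Orphan members gave the largest SLC35 increases. SLC35F2, known for taking up the drug YM155 into tumour cells, read 6.15, 6.19, 6.12 and 6.01 before and 8.10, 6.56, 8.78 and 9.002 after hCG. The arrays before hCG lay close together, and array 2 after hCG was only slightly above them. The increase was 3.98-fold (log2 change 1.99, SE 0.45, adjusted p = 0.0101).

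SLC35E3 read 9.45, 8.09, 8.21 and 7.99 before and 10.44, 9.98, 10.002 and 9.81 after hCG. Array 1 was the highest of its group on both sides (3.09-fold increase, log2 change 1.63, SE 0.30, adjusted p = 0.00394). SLC35C2, a Golgi protein that modifies fucose supply to Notch, read 9.68, 9.44, 9.35 and 9.28 before and 10.27, 9.89, 9.91 and 9.97 after (change 0.57, SE 0.13, adjusted p = 0.0128). Array 1 was again the highest in each group. The orphan or little-studied members SLC35D3, SLC35E4, SLC35F3, SLC35F4, SLC35F5 and SLC35F6 differed by -0.23 to 0.13 and did not pass. In this role group of 13 genes 4 rose (30.8%, against 11.3% of all genes) and 1 fell (7.69%, against 12.5%). The median change of the group was -0.04, with 6 genes above 0 and 7 below, so its members as a whole did not lean upward.

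**Figure D4:**
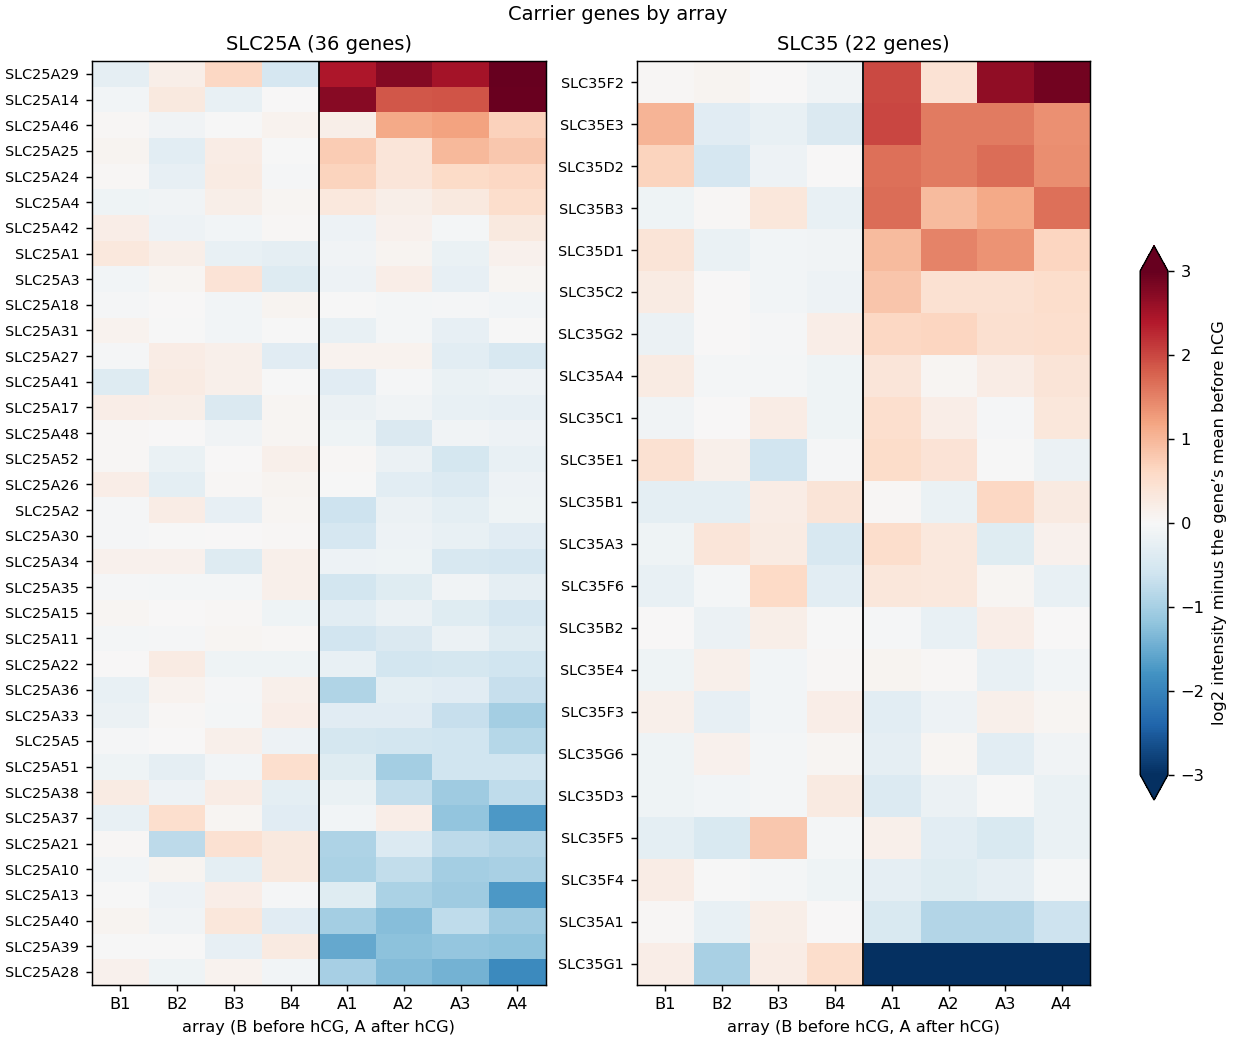
Log2 intensity of each gene on each array minus its mean before hCG, for SLC25A (left) and SLC35 (right), ordered by change; colours saturate at -3 and 3. After hCG the lower part of the SLC25A panel is blue on all 4 arrays except for SLC25A37, with some genes deepest on array 4. SLC25A37 stays near its mean before hCG on arrays 1 and 2. The upper part of the SLC35 panel is red on all 4 arrays, with SLC35F2 paler on array 2 than on arrays 1, 3 and 4.

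The contrast between families appeared on each array after hCG. The median over members of the log2 value minus the gene's mean before hCG was -0.21, -0.17, -0.29 and -0.31 on arrays 1 to 4 for SLC25A, and 0.35, 0.13, 0.11 and 0.10 for SLC35. Over all genes it was -0.12, -0.08, -0.06 and -0.08. SLC25A thus lay below and SLC35 above all genes on every array after hCG, with array 1 the highest for SLC35. Among the 26 members past the threshold, array 1 after hCG was the nearest to the group before hCG for 11 and array 4 for 3.

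Signal strength bears on these counts, since bright genes pass more often. Among genes at or above the median gene's signal, 17.4% rose and 16.9% fell, and among dimmer genes 5.22% and 8.07%. Of the 24 brighter SLC25A genes 11 fell (45.8%) and 5 rose (20.8%), and of the 12 dimmer ones 1 fell and none rose. Of the 13 brighter SLC35 genes 6 rose (46.2%) and 1 fell (7.69%), and of the 9 dimmer ones 1 rose and 1 fell. Among the brighter genes the median change was -0.43 for SLC25A, 0.26 for SLC35 and -0.06 for all. Among the dimmer genes it was -0.26, -0.15 and -0.10, with 11 of 12 SLC25A and 7 of 9 SLC35 genes below 0. The family medians thus lay on opposite sides of 0 among brighter genes, and both below 0 among dimmer ones.

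Genes that act beside the carriers were examined from lists. Carrier proteins reach the inner membrane through the TOM and TIM import complexes. Of 11 measured genes of carrier import and the outer membrane 3 fell and none rose. On the brightest probe sets all 11 changes were below 0, from -0.98 to -0.13, as were those of 8755 of all 14132 genes. Of the 11 changes, 8 did not pass. With probe sets averaged, VDAC1, the main channel of the outer membrane, passed as higher (0.43, adjusted p = 0.00835, in place of -0.21), TIMM13 was at 0.023, and TIMM10 passed as lower (-0.60, adjusted p = 0.0192). TOMM70, the import receptor for carriers, was at 6.42 ± 0.24 before and 5.45 ± 0.28 after hCG (change -0.98, adjusted p = 0.00273; -0.64 with 32 added), and TOMM5 fell by 0.77 (adjusted p = 0.0147); the third gene, TIMM9, a chaperone of the space between the membranes, fell by 0.63 (adjusted p = 0.0166, or 0.0504 without array 1 before hCG).

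Of 10 other mitochondrial carriers, channels and related proteins 3 fell and none rose. SFXN4, a sideroflexin linked to iron-sulfur clusters, fell by 1.63 (SE 0.25, adjusted p = 0.00116), and MCU, the pore of the calcium uniporter, by 1.26 (SE 0.13, adjusted p = 0.000117). UCP3, an uncoupling protein, fell by 0.40 (adjusted p = 0.0366), and its call was lost without any array but array 3 before or array 3 after hCG, with adjusted p up to 0.0925; with 32 added its change was -0.24. For both lists the share called, 27.3% and 30%, was close to the 23.8% of all genes in either direction, though every call was a fall, against 12.5% of all genes.

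On the Golgi side, enzymes that make nucleotide sugars and PAPS rose more often than they fell: 6 of the 19 on the list rose and 1 fell, 36.8% called, and the other 12 did not pass. Over all genes 11.3% rose, 12.5% fell and 23.8% were called in either direction. GFPT2, which starts the hexosamine pathway to UDP-N-acetylglucosamine, read 6.51, 6.49, 6.40 and 6.17 before and 11.36, 11.23, 10.80 and 10.48 after hCG (change 4.58, SE 0.19, adjusted p = 8.03e-07). UGP2, which makes UDP-glucose, read 10.02, 10.14, 10.84 and 9.94 before and 13.07, 13.18, 13.01 and 12.89 after (change 2.80, SE 0.19, adjusted p = 1.27e-05). Neither gene had any overlap between the groups. GFPT1, the paralog of GFPT2, rose by 0.58 (adjusted p = 0.0206), and this call was lost without arrays 1 or 2 before or array 4 after hCG (adjusted p up to 0.0596).

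Genes of the sialic acid route did not all move alike. GNE and CMAS, which start and end the synthesis of CMP-sialic acid, rose by 1.32 and 1.13 (adjusted p = 4.9e-05 and 0.0011). NANS and NANP, also of this route, differed by -0.08 and 0.54 and did not pass (adjusted p = 0.876 and 0.106). SLC35A1, which carries CMP-sialic acid into the Golgi, was lower on its brightest probe set but did not pass with its probe sets averaged, as given above. For the sulfate donor, PAPSS2, a PAPS synthase, fell by 0.41 (adjusted p = 0.0493), while the transporter SLC35B3 rose. The other synthase PAPSS1 and the other transporter SLC35B2 did not pass (-0.29 and -0.01, adjusted p = 0.731 and 0.946). The PAPSS2 call was lost without any array but array 4 before or array 3 after hCG, with adjusted p up to 0.117, and also after median centring (adjusted p = 0.0837); the mean of its 4 probe sets fell by 0.65. Of 8 genes of nucleoside phosphate handling and related transport in these compartments, 1 rose (12.5%, close to the 11.3% of all genes) and none fell. The rise was that of the acetyl-CoA transporter SLC33A1, by 0.79 (adjusted p = 0.0148).

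Several probe sets exist for 21 of the 58 genes, and they did not always move together. Of 58 SLC25A probe sets 6 rose and 15 fell, and of 38 SLC35 probe sets 10 rose and 2 fell. Of all 52766 probe sets 14.1% passed in either direction. That background is not a like set, since 27449 of its probe sets have no gene symbol, while all member probe sets have 1. SLC35E1, an orphan member, shows the widest split: its brightest probe set differed by 0.19 (adjusted p = 0.602 over genes), and among the other 3 probe sets 2 rose, by 2.07 and 1.69. SLC35C1 was similar, with 0.26 on its brightest probe set and a rise of 0.76 on the other. For SLC25A11 the dimmer probe set differed by 0.67 and did not pass, so the mean of the 2 was 0.14 in place of -0.39. Averaging the probe sets ended some calls and gave others. The rises of SLC25A25 and SLC35C2 did not pass then (0.38 and 0.26, adjusted p = 0.0844 and 0.0987), nor did the fall of SLC35A1 given above. SLC35E1 and SLC35C1 passed as higher (0.93 and 0.51, adjusted p = 0.0021 and 0.00808), and SLC25A15 as lower as given above.

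**Figure D5:**
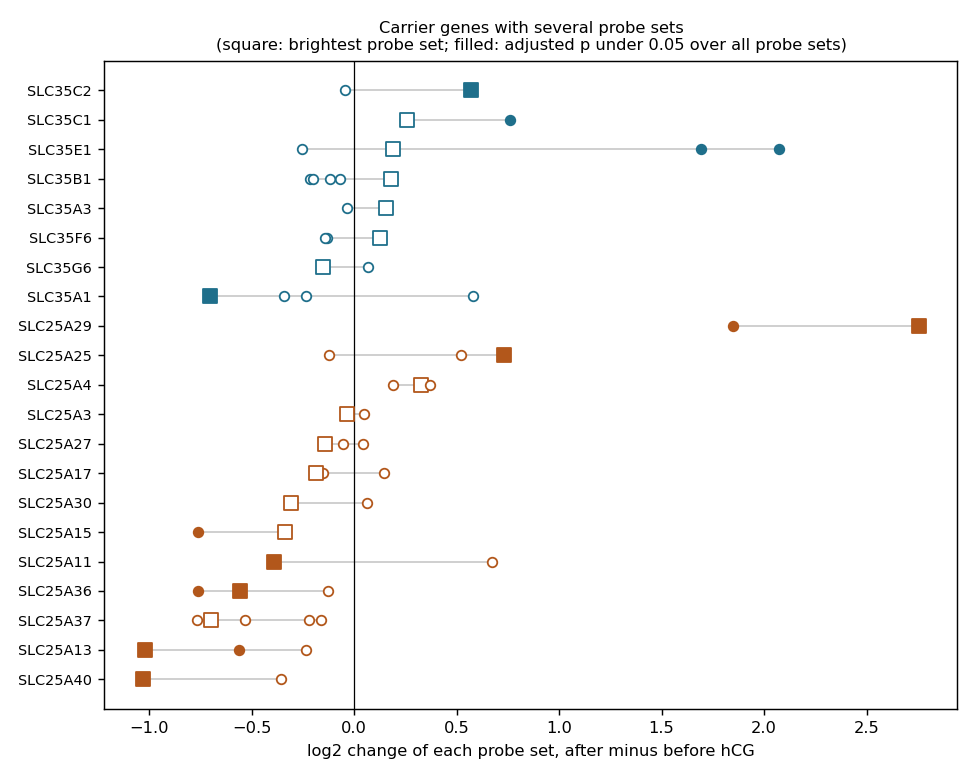
Log2 change after hCG of each probe set for the 21 genes with several probe sets; squares mark the brightest probe set, filled symbols an adjusted p under 0.05 over all probe sets. SLC35E1 spans -0.25 to 2.07 and SLC35A1 -0.71 to 0.58, while the 2 probe sets of SLC25A29 lie together at 1.85 and 2.75.

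As context for all members, 10 of 15 listed granulosa markers were measured, and all 10 had means above the array medians. After hCG 9 of the 10 fell, where 12.5% of all genes fell, and the reason was not tested. CYP19A1, the aromatase, fell by 2.08 and INHA, an inhibin subunit, fell by 0.57, and the others were AMH, AMHR2, INHBA, INHBB, NR5A1, NR5A2 and HSD17B1; the AMH call was lost without array 1 or 3 before or array 2 after hCG. FST, the tenth, differed by 0.32. Pearson correlations between arrays were 0.984 to 0.988 before, 0.974 to 0.984 after and 0.935 to 0.957 between the groups, and no arrays were identical. The log2 3' minus 5' signal of ACTB, a measure of RNA integrity, was 4.70 to 4.80 before and 4.47 to 5.18 after hCG. Its SD was 0.05 before and 0.31 after. That of GAPDH was 2.65 to 2.81 before and 2.53 to 2.76 after. The exact two-sided permutation p was 0.914 for ACTB and 0.171 for GAPDH, and the smallest possible is 0.0286. In both genes the 3' signal was the higher on every array. Any effect of this on the carrier values was not tested. Summed marker signals overlapped between the groups for theca, endothelium, leukocytes, oocytes, stroma and surface epithelium, and the part of these cells in the carrier results was not tested. Of the 32 markers measured in these 6 lists, 9 had means below the array medians. Of the 32, 3 passed, where 23.8% of all genes did in either direction. CYP17A1 of theca fell by 0.47, CSF1R of macrophages fell by 2.09 and KRT19 of epithelium rose by 1.32. The calls of CYP17A1 and KRT19 were each lost on leaving out any of 6 arrays: all but array 1 before and array 2 after hCG for CYP17A1, and all but array 2 before and array 4 after for KRT19. With 32 added CYP17A1 differed by -0.21, and with its probe sets averaged by -0.19 (adjusted p = 0.289). The brightest markers of the remaining lists, GLI1, VWF, ZP4 and DCN, differed by -0.30, 1.26, 0.31 and 0.92 and did not pass.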

How the data were processed

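The deposited table holds intensity values on a linear scale, which the authors derived by RMA in Affymetrix Expression Console, per the submitters' processing notes; no version is stated in the sources used here. After 99 control rows were left out, log2 was taken of 52766 probe sets. GEO's platform annotation gave 1 symbol to 24956 of them, several to 361 and none to 27449; symbols were updated by gene ID where the reference gene table held it (24616). There are no detection calls, and precision is limited by the number of arrays.

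Each of 14132 genes was represented by its probe set with the highest mean. Groups (n = 4 each) were compared with limma 3.58.1 (lmFit, eBayes) in R 4.3.3, Benjamini-Hochberg adjusted over all genes, threshold 0.05. Probe sets were fitted the same way. The call was tested on simulated data. Members, role groups and gene lists were chosen with earlier results of these data known. Values on every array are given for up to 6 members per family and direction with the largest change past the threshold. They are also given for 3 abundant members. List genes are the largest changes per direction. Added after their values were seen were TIMM9, TIMM10, TIMM13, VDAC1, UCP3, GFPT1, CMAS, GNE, NANS, NANP, PAPSS1, PTPRC, S100A8 and CD68. So were the leukocyte pattern across arrays and the array values of CSF1R, SLC25A4, SLC25A21 and SLC25A37. Replicate numbers did not pair the samples. Sequences and genome positions are not used here.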

Additional observations from a re-analysis of the deposited data

Results flagged for a closer look

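In 116 groups of 4 arrays (58 genes, 2 groups each), 5 groups (4.31%) had an array whose gap to the nearest other exceeded Dixon's 95% critical value; chance flags about 1 group in 20. Before hCG, array 1 read 9.45 for SLC35E3 against 7.99 to 8.21 on the others, and this gene rose with and without that array. Before hCG, array 4 read 5.82 for SLC25A35 (others 5.62 to 5.64) and 6.13 for SLC35D3 (others 5.74 to 5.80), and array 3 read 6.11 for SLC25A34 (others 6.63 to 6.67). After hCG, array 2 read 4.82 for SLC25A48 (others 5.09 to 5.14). Of these 5 genes only SLC35E3 passed the threshold.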

How the results depend on the processing

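Counts and medians were recomputed under 15 alternatives, and single genes under 15 or, for the 21 members below the median gene's signal, 14, since the filter on low values leaves these out. SLC35 rises and SLC25A rises stayed within 1.5 times their counts in all of them. With the replicate number as a block, SLC25A had 5 higher and 11 lower and SLC35 7 higher and 2 lower genes; deviations of same-numbered arrays correlated at -0.03 to 0.16, so the numbers were not taken to pair the samples. Leaving out single arrays gave 6 to 10 falling SLC25A genes, medians of -0.33 to -0.27 for SLC25A and 0.063 to 0.24 for SLC35, and a difference of medians of -0.57 to -0.33. With the mean of all probe sets, SLC35 had 1 falling gene, the medians were -0.22 and 0.023 and their difference -0.25. With 32 added the SLC25A median was -0.17 and the difference -0.30. Among brighter genes alone SLC35 had 1 falling gene, the SLC25A median was -0.43 and the difference -0.69; this alternative tests fewer genes. Repeated quantile normalization gave an SLC35 median of 0.061 and a difference of -0.33. The cause of the other shifts was not tested. Of 26 members past the threshold, 16 passed in the same direction in every alternative run: 6 of the 12 SLC25A falls, 3 of the 5 SLC25A rises, 6 of the 7 SLC35 rises and 1 of the 2 SLC35 falls. SLC25A11 changed direction, to 0.14, with the mean of its probe sets. Of 849 recomputed values 45 fell below the threshold, 12 passed it newly, and 25 sign changes concerned values of at most 0.21 that did not pass in either setting.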
